A study of Mus musculus with 44 samples.

Results

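The step from embryonic day (E) 12.5 to E13.5 in germ cells of the mouse fetal testis was followed on 4 of the 44 arrays of a germ cell time course. The arrays titled male E12.5 (2 arrays) and male E13.5 (2 arrays) made up the comparison, and the female arrays of the same days (2 and 2) served to ask which changes differed between the sexes. All 8 samples were labelled as primordial germ cells and had been sorted by FACS. Neither the strain and genotype of the embryos nor the marker used for sorting is given in the sources used here, and no treatment is named. Total RNA was amplified, labelled with biotin and hybridized to Illumina MouseRef-8 v2 beadchips, which carry short gene-specific probes on beads. The series counts each pair of arrays as biological replicates, whereas its protocol allows biological or technical duplicates and names no animals. Each p-value therefore measures only the spread between replicate arrays, and that spread was estimated over all 44 arrays of the series.

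Primordial germ cells are the precursors of eggs and sperm. Once they lie in the testis, they are enclosed in cords by Sertoli cells, the somatic cells that organise the testis. There they stop dividing, hold back from meiosis and begin a male programme in which the RNA-binding protein Nanos2 is a central regulator. In the ovary the germ cells of the same days instead prepare for meiosis under the influence of retinoic acid. As male germ cells leave the cell cycle, they also start to build the machinery that will later silence transposons, made up of piRNA proteins and the DNA methylation cofactor Dnmt3l.

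Values are given as levels on a log2 scale of probe intensity, after background correction and quantile normalization, and differences between days are given as log2 changes. A gene was called when its adjusted p in limma was under 0.05 and its change at least 2-fold. A probe counted as detected on an array at a detection p under 0.01. Of the probes on the array, 10935 genes passed the filter on detection and were tested, and 7059 of them were detected on at least 2 of the 4 male arrays. The levels of a pair of replicate arrays correlated at 0.979 at E12.5 and 0.985 at E13.5, and the share of probes detected was 36.2% to 36.8% at E12.5 and 37.9% to 41.2% at E13.5. The E13.5 arrays were also brighter, with an upper quartile of intensity of 130 and 170 against 99.4 and 110 at E12.5.

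The germ cell label was checked against marker genes. Dazl, a germ cell RNA-binding protein, lay at 11.82 and 11.98 at E12.5 and at 11.80 and 11.91 at E13.5. Ddx4, the germ cell RNA helicase also called Vasa, lay at 8.62 and 8.93 and then at 8.66 and 9.24. Both were detected on all 4 arrays and neither was called (log2 changes of -0.04 and 0.17, adjusted p = 0.942 and 0.869). Of 12 germ cell markers 11 were tested and 10 were detected on at least 2 of the 4 arrays, with a summed intensity of 26626 and 26749 at E12.5 and 33226 and 31445 at E13.5. Of the 11, Tdrd1 rose and Rhox9 and Rhox6 fell (27.3% called, against 7.14% of all genes), and Mael was detected on none of the 4 arrays.

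Between E12.5 and E13.5, 781 of the 10935 genes changed in male germ cells (7.14%). Of these 452 rose (4.13% of genes tested) and 329 fell (3.01%). The median change over all genes was 0.02. The arrays of both days did not overlap for 54.5% of all genes tested and for each of the 781 called genes. An unadjusted p under 0.05 was reached by 2829 genes, and 1583 passed the adjusted p without regard to the size of the change. With quantile normalization 57.9% of the calls were rises. With median scaling, which moved the median change of all genes to -0.14, the share of rises was 77.7% (583 rises and 167 falls). Of the calls made with quantile normalization, 230 of the 452 rises and 159 of the 329 falls were called there too.

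**Figure D1:**
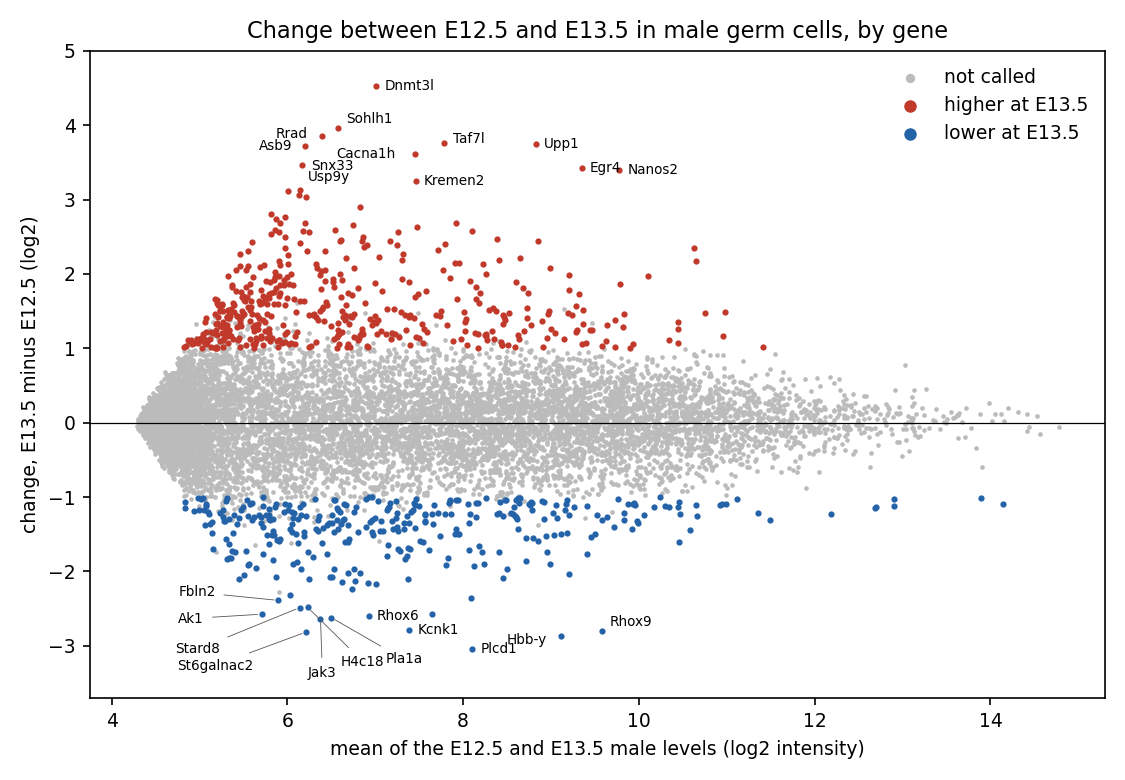
Log2 change from E12.5 to E13.5 in male germ cells (vertical axis) against the mean log2 level over both days (horizontal axis), with 1 point for each of the 10935 genes tested. The 452 genes called higher are red, the 329 called lower are blue, and the 12 largest rises and 12 largest falls chosen by the naming rule are labelled. Dnmt3l, measured against background at E12.5, has the largest fitted change, and Nanos2 and Egr4 combine a large rise with a high mean level.

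Genes of the male germ cell fate rose at this step. Of 14 genes on the list 11 were tested, of which 6 rose and 1 fell, a share called of 63.6% against 7.14% of all genes, and the median change was 1.06 against 0.02. The list names genes already known from male germ cells of this age in mouse, so its direction is no independent evidence. Leaving out any of the 4 arrays left 5 rises, because the smallest of them, Tdrd1, no longer passed.

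Dnmt3l, a cofactor of de novo DNA methyltransferases without enzyme activity of its own, was at 4.43 and 5.07 at E12.5, where it was detected on neither array, and at 9.70 and 8.86 at E13.5. The arrays of the days lay far apart. Its log2 change was 4.53 (SE 0.43, n = 2 and 2, adjusted p = 6.98e-08), which amounts to an increase of at least 10.8-fold over the background of the E12.5 arrays. Another probe for the same gene rose by 4.47 on the log2 scale.

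Nanos2, which represses mRNAs that would lead germ cells into meiosis, was already detected at E12.5. Its levels were 8.18 and 7.98 at E12.5 and 11.46 and 11.49 at E13.5, a 10.5-fold rise (log2 change 3.39, SE 0.50, adjusted p = 3.41e-05). The replicates of each day lay within a fraction of that difference. The related Nanos3, which protects migrating germ cells from death, was at 8.47 and 7.99 and then at 9.60 and 9.79, a 2.76-fold rise (adjusted p = 0.00118).

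Egr4, an early growth response transcription factor needed for male fertility in mouse, moved from 7.34 and 7.93 to 10.82 and 11.30. That was a 10.7-fold rise (log2 change 3.42, SE 0.39, adjusted p = 8.75e-07). Piwil4, the nuclear Piwi protein of fetal male germ cells also known as Miwi2, was detected on 1 E12.5 array, with levels of 5.17 and 6.21, and on both E13.5 arrays at 8.13 and 7.96 (log2 change 2.36, SE 0.42, adjusted p = 0.000294). Tdrd1, a Tudor-domain protein that binds Piwi proteins, was at 5.09 and 5.06 and then at 6.21 and 6.06. It was detected at E13.5 alone, with at least a 1.22-fold increase (adjusted p = 0.029), and leaving out any of the 4 arrays ended its call (highest adjusted p = 0.149).

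**Figure D2:**
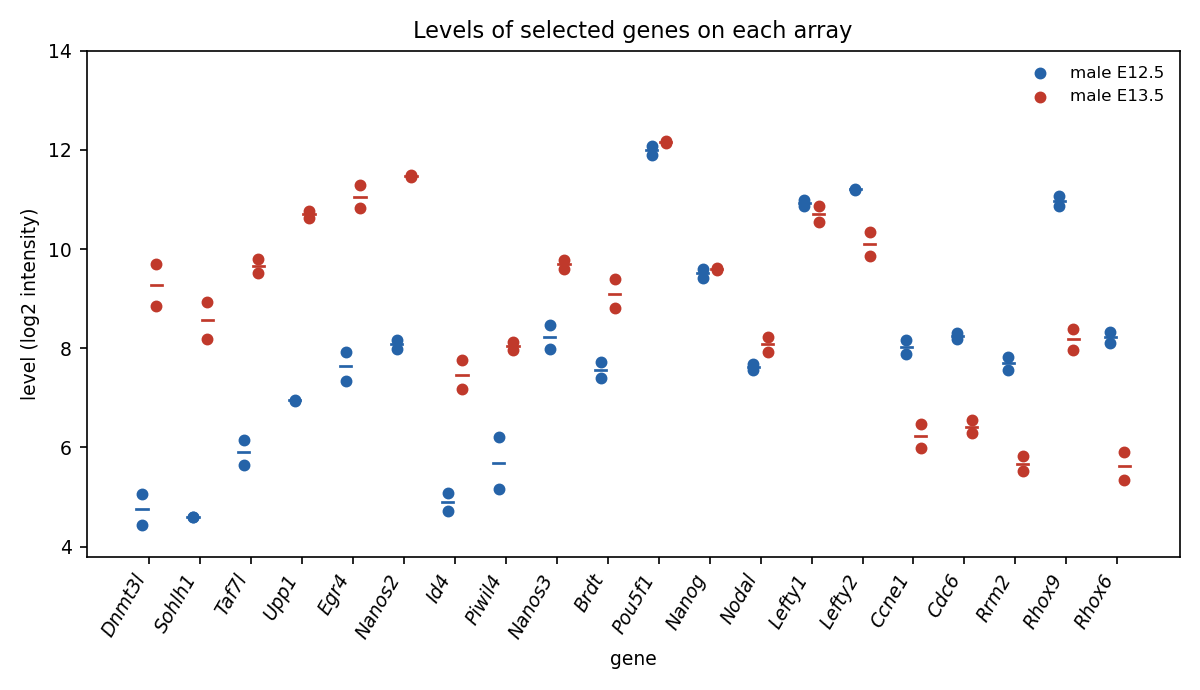
Log2 levels of 20 genes on each male array, with points for arrays and short bars for the mean of each day (E12.5 blue, E13.5 red). The genes from Dnmt3l to Brdt are higher on both E13.5 arrays than on both E12.5 arrays, Pou5f1, Nanog, Nodal and Lefty1 were not called, and Ccne1, Cdc6, Rrm2, Rhox9 and Rhox6 are lower at E13.5.

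Genes best known from spermatogonia, the mitotic germ cells of the testis after birth, also rose. Of 28 listed genes 22 were tested and 19 were detected on at least 2 of the 4 arrays. Of the 22, 10 rose and 1 fell (50% called, against 7.14% of all genes), and the median change was 0.41. The 10 include Nanos2, Nanos3 and Egr4 from the list above. Under the other settings and with any array left out, 7 to 10 members rose.

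Sohlh1, a helix-loop-helix transcription factor of spermatogonia and of young oocytes, was detected on neither E12.5 array (4.6 and 4.59) and on both E13.5 arrays (8.93 and 8.19). Its log2 change was 3.97 (SE 0.23, adjusted p = 1.67e-11), at least 6.55-fold, and another probe gave 3.48. Upp1, which splits uridine in pyrimidine salvage, moved from 6.94 and 6.96 to 10.62 and 10.77 (13.4-fold, adjusted p = 1.27e-06), and 2 further probes for it gave log2 changes of 3.84 and 4.18. Id4, an inhibitor of helix-loop-helix factors found in spermatogonial stem cells in mouse, went from 4.71 and 5.08, undetected, to 7.17 and 7.76 (at least 3.07-fold, adjusted p = 2.32e-06).

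The other 4 rises on that list were Neurog3, Rhox10, Tspan8 and Ret, which are given here after their values were seen. Neurog3, a helix-loop-helix factor of spermatogonia, rose from 4.49 and 4.62 to 7.12 and 7.05 (at least 2.36-fold). Rhox10, a homeobox gene of the X chromosome, rose from 6.86 and 6.31 to 8.994 and 8.997 (5.30-fold). Tspan8, a membrane tetraspanin, rose from 5.14 and 4.89 to 6.96 and 6.98 (at least 2.17-fold). Ret, the receptor subunit for the growth factor Gdnf, rose from 6.88 and 6.86 to 8.33 and 8.08 (2.51-fold, adjusted p = 0.0214). The list's fall was Lhx1, a homeobox factor, at 10.33 and 10.22 and then 9.33 and 9.16 (log2 change -1.03, adjusted p = 0.0373), which lost its call with any array left out.

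Genes that gonadal germ cells switch on in both sexes made up a further list, and 4 of its 15 tested members rose (26.7%, against 4.13% of all genes). The list held 19 genes, and the median change was 0.67. With the other settings and with arrays left out, 4 to 8 members rose and none fell. Taf7l, a germ cell relative of a general transcription factor subunit, moved from 6.16 and 5.65 to 9.81 and 9.52 (13.5-fold, log2 change 3.76, SE 0.18, adjusted p = 4.67e-13). Tex101, a surface protein of germ cells, was undetected at E12.5 (4.36 and 4.802) and lay at 7.44 and 7.08 at E13.5 (at least 2.65-fold, adjusted p = 6.78e-08). Brdt, a testis bromodomain protein, moved from 7.73 and 7.40 to 9.39 and 8.81 (2.91-fold), and Mageb4, an X-linked germline antigen, from 9.21 and 9.0 to 10.60 and 10.52 (2.74-fold).

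The promoters of Sohlh1 and Taf7l are shown because both genes went from little or no signal to a clear one within the day, and both carry the E-box letters CACGTG. The sequences are from RefSeq on GRCm38.p6, 300 bases each from upstream of the annotated start to just past it, read 5′ to 3′ along the gene's own strand. Capitals mark CACGTG in both and TATAAA in Taf7l, where matches on both strands overlap. Sohlh1 lies at chr2:25847199-25847498 on the minus strand and Taf7l at chrX:134476441-134476740 on the minus strand.
Sohlh1: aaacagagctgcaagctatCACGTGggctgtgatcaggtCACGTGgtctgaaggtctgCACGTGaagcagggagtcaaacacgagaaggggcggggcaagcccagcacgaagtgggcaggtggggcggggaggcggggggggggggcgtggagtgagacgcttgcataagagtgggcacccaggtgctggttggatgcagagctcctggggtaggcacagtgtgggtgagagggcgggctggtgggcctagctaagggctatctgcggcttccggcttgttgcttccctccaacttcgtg
Taf7l: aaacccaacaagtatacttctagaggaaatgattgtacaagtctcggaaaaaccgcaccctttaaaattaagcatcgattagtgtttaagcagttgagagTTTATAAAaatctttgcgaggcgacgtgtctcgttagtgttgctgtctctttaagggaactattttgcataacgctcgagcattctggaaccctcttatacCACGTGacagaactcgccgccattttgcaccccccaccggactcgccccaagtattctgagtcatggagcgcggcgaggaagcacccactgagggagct
The letters CACGTG, which read the same on both strands, occur 3 times in the Sohlh1 window and 1 time in that of Taf7l. They occur in 7.24% of the 27025 promoters of the table, in 9.82% of those of the genes tested and in 11.7% of those called higher. A match describes the sequence and shows no binding.

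Of the piRNA pathway, which guards germ cells against transposons, 3 of 16 tested members rose (18.8%, against 4.13% of all genes, 23 listed). Each of the 16 had a change above 0 (median 0.59), as had 5635 of all 10935 genes. The 3 rises were Piwil4, Tdrd1 and Henmt1, which methylates the ends of piRNAs. Henmt1 was detected on 1 of the 4 arrays only, with levels of 4.41 and 4.37 and then 6.61 and 4.88, and its call ended without the brighter E13.5 replicate 1 (log2 change 0.49) or without E12.5 replicate 2. Piwil2, the partner of fetal piRNA production, moved from 10.24 and 10.23 to 10.75 and 10.71, a change of 0.50 that passed the adjusted p (0.0187) without reaching 2-fold. Between 1 and 8 members rose under the alternatives, and under median scaling 6 did.

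Of the oocyte list 3 of 13 tested members rose (23.1%, against 4.13% of all genes), and 5 of the 13 were detected on at least 2 of the 4 arrays. Beside Sohlh1 they were Nlrp5 and Nlrp14, members of a gene family that stores maternal proteins in the egg. Nlrp5 moved from 6.404 and 6.28 to 8.04 and 8.52 (3.83-fold, adjusted p = 4.41e-06), although dimmer probes for it gave log2 changes of 0.77, under 2-fold, and -0.07, detected on none of the 4 arrays. Nlrp14 moved from 7.62 and 7.92 to 9.56 and 9.60 (3.52-fold, adjusted p = 0.000225). Oocyte growth factors such as Gdf9 were detected on none of the 4 arrays.

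The remaining genes among the 12 largest rises were not on the fate lists. Rrad, a small GTP-binding protein that restrains calcium channels, was undetected at E12.5 (4.49 and 4.44) and at 8.59 and 8.05 at E13.5 (log2 change 3.86, SE 0.24, at least 5.53-fold, adjusted p = 4.13e-11). Cacna1h, a subunit of a T-type calcium channel, moved from 5.61 and 5.68, undetected, to 9.11 and 9.42 (at least 10.6-fold, adjusted p = 9.84e-06). Both genes thus rose from below background to clear detection on both E13.5 arrays. Asb9, an adaptor of ubiquitin ligases, moved from 4.36 and 4.32 to 7.88 and 8.24 (at least 4.61-fold). Snx33, a sorting nexin, moved from 4.57 and 4.31 to 7.92 and 7.87 (at least 4.14-fold). Kremen2, a receptor that lowers Wnt signalling together with Dickkopf proteins, moved from 5.12 and 6.54, detected on 1 array, to 9.46 and 8.71 (log2 change 3.25, SE 0.56). Usp9y, a Y-linked deubiquitinase, moved from 4.799 and 4.35 to 7.98 and 7.43 (at least 3.62-fold). It was the 1 rise among 5 tested Y-linked genes (20%, against 4.13% of all genes).

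Pluripotency genes, which primordial germ cells share with embryonic stem cells, gave no call over this day. None of the 19 tested members (of 25 listed) was called either way, their median change was -0.10, and 1 at most was called in either direction under any alternative. In limma 5 of the 19 had an unadjusted p under 0.05. By adjusted p alone 1 passed, Dppa4, an early pluripotency marker, with a change of 0.77. The changes of the list ran from -1.20 to 0.77, and 13 of the 19 were below 0. Pou5f1, the pluripotency factor Oct4, was at 11.89 and 12.08 and then at 12.14 and 12.18 (log2 change 0.17, SE 0.27, adjusted p = 0.788). Nanog was at 9.41 and 9.60 and then at 9.58 and 9.63 (0.09, SE 0.37, adjusted p = 0.927). Sox2 was at 9.17 and 9.11 and then at 8.48 and 8.59 (-0.61, SE 0.36, adjusted p = 0.313).

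The Nodal pathway, a TGF-beta signal known to be active in male germ cells of these days in mouse, gave 2 falls among 13 tested members and no rise. The share called was 15.4%, against 3.01% of all genes that fell, and the median change was -0.21. The ligand Nodal was at 7.56 and 7.68 and then at 8.23 and 7.93 (log2 change 0.46, SE 0.25, adjusted p = 0.259). Its feedback inhibitor Lefty1 was at 10.99 and 10.86 and then at 10.88 and 10.55 (-0.21, adjusted p = 0.588). The other inhibitor, Lefty2, was at 11.20 and 11.22 and then at 10.34 and 9.85 (-1.11, SE 0.25, adjusted p = 0.00314), and without E13.5 replicate 2 its change was -0.87, short of 2-fold. Foxh1, the transcription factor that carries the signal to DNA, fell from 7.97 and 8.01 to 6.98 and 6.49 (-1.25, adjusted p = 0.000401), and another probe fell by 1.48 on the log2 scale. Neither fall kept its call with median scaling or cyclic loess. The co-receptor gene Tdgf1 did not pass the filter and was not used here.

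The meiotic lists were short, so their shares of calls in male germ cells rest on few genes. Of 6 tested genes of the meiotic axis, 5 were detected on both arrays of each day. Of the 6, 1 rose, Rec8 (16.7% called, against 7.14% of all genes). Stra8, the gatekeeper of meiosis induced by retinoic acid, was detected on none of the 4 arrays (4.45, 4.31, 4.30 and 4.61). Of 10 tested recombination genes none was called in limma. An unadjusted p under 0.05 was reached by 5 of them, and by adjusted p alone Spo11 (0.55), Brca2 (-0.84) and Psmc3ip (-0.85) passed with changes under 2-fold. Among 14 tested genes of the retinoic acid response 2 rose, Rec8 and Crabp2 (14.3% called, against 7.14% of all genes). Rec8, a meiotic cohesin, was at 5.86 and 6.26 and then at 7.10 and 7.13 (log2 change 1.05, adjusted p = 0.0351), and it lost its call when any of the 4 arrays was left out (highest adjusted p = 0.228). Crabp2, a carrier of retinoic acid inside the cell, was undetected at E12.5 (4.81 and 4.54) and at 7.24 and 6.34 at E13.5 (at least 1.92-fold, adjusted p = 0.0106). Its call ended without E12.5 replicate 2 or without E13.5 replicate 1 (highest adjusted p = 0.142).

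Some genes of the cell cycle fell. Among G1 cyclins, pocket proteins and E2F factors 2 of 17 tested members fell and none rose (11.8% called, against 7.14% of all genes, of which 3.01% fell), and the median change was -0.59. Ccne1, the cyclin E that drives entry into S phase, went from 7.89 and 8.17 to 6.48 and 5.98 (log2 change -1.80, SE 0.25, adjusted p = 1.71e-05). E2f2, a transcription factor of S-phase genes, went from 8.09 and 7.61 to 5.56 and 5.66 (-2.24, SE 0.30, adjusted p = 8.43e-06). Ccnd3, a cyclin D, went from 10.78 and 10.79 to 9.97 and 9.76 (-0.92, adjusted p = 0.000187), short of 2-fold.

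The inhibitors of cyclin-dependent kinases, which hold cells in G1, were not called. None of the 7 tested passed in limma, 1 had an unadjusted p under 0.05, and 1 rose with median scaling (median change 0.21). Cdkn1c, also known as p57, was at 10.44 and 10.05 and then at 11.16 and 10.97 (log2 change 0.82, SE 0.28, adjusted p = 0.0517). Its arrays did not overlap. Cdkn1b, also known as p27, was at 5.67 and 6.56 and then at 6.20 and 6.43, with overlapping days (0.21, SE 0.47, adjusted p = 0.865). Cdkn2b, also known as p15, was detected at E13.5 alone, at 6.22 and 6.10 after 5.46 and 5.53 (adjusted p = 0.357).

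DNA replication genes fell as well. Of 47 listed genes 41 were tested, of which 14 fell (34.1%, against 3.01% of all genes) and none rose, and 39 of the 41 changes were below 0 (median -0.73). With an array left out 12 or 13 fell, and with median scaling 7 did. Rrm2, the regulated subunit of the enzyme that makes deoxynucleotides, went from 7.56 and 7.83 to 5.52 and 5.82 (log2 change -2.02, SE 0.22, adjusted p = 6.49e-07). Cdc6, which loads the replicative helicase, went from 8.32 and 8.18 to 6.55 and 6.29 (-1.83, SE 0.25, adjusted p = 1.05e-05). Both genes were lower on each E13.5 array than on each E12.5 array. Tk1, a thymidine kinase (-1.71), and Dut, which removes dUTP (-1.69), were also called. Cdc45, part of the active helicase, went from 9.92 and 9.94 to 8.44 and 8.44 (-1.49, adjusted p = 0.000127). The other 9 falls, given after their values were seen, were the helicase subunits Mcm2 (-1.10) and Mcm3 (-1.31), the sliding clamp Pcna (-1.40), the nuclease Fen1 (-1.11), Tyms (-1.14), which makes thymidylate, Pold2 (-1.17), a polymerase subunit, the histone chaperones Chaf1a (-1.13) and Chaf1b (-1.18), and Ung (-1.03), which removes uracil.

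The promoters of Cdc6 and Rrm2 are shown as the strongest falls of that list, with the letters TCCCGC, the core of sites bound by E2F factors, in capitals. They are from the same RefSeq table and of the same length, Cdc6 at chr11:98907901-98908200 and Rrm2 at chr12:24708004-24708303, both on the plus strand. In Cdc6 the match is on the opposite strand and so reads GCGGGA.
Cdc6: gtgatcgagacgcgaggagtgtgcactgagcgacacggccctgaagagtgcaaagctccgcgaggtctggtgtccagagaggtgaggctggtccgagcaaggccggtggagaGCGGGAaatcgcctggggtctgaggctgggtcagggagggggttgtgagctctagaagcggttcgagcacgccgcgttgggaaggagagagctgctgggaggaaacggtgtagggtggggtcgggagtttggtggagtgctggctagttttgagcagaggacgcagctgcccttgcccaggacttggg
Rrm2: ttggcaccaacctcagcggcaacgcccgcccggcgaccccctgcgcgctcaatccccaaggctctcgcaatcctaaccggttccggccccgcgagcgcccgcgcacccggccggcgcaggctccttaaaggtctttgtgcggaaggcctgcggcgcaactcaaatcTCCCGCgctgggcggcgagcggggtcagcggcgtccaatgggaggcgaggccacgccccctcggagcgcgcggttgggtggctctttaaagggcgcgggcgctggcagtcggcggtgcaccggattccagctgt
On either strand TCCCGC occurs in 9 of the 14 promoters of replication genes called lower. It occurs in 20.0% of all promoters of the table, in 33.6% of those of the genes tested and in 40.5% of those called lower.

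Replication-dependent histone genes, which supply histones for newly made DNA in S phase, also fell. The list was added after the values were seen, so its count is a description. Of 50 such genes on the array 42 were tested, 28 of them fell (66.7%, against 3.01% of all genes) and none rose, and the median change was -1.20. With any array left out, 22 to 27 members fell, and with median scaling 27. H4c18, a histone H4 gene among the 12 largest falls, went from 7.22 and 7.73 to 4.48 and 5.49, where it was undetected (at least 3.76-fold lower, adjusted p = 0.000184). H4c12, another histone H4 gene, went from 7.56 and 7.82 to 5.19 and 5.90 (log2 change -2.14, adjusted p = 5.49e-05). H2bc9 fell from 9.47 and 9.53 to 7.48 and 7.35, and H2bc7 from 10.16 and 10.28 to 8.29 and 8.08. Histone genes of a class are near-identical, so a probe may read several of them and the count is not one of independent genes. Most of these mRNAs lack a poly(A) tail, the feature from which kits of the kind named in the labels prime, so the levels describe the part of these transcripts that was amplified.

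The promoter of H4c12 is shown as a histone gene that was called lower in males and whose steps differed between the sexes (difference -2.70). In females it was at 6.87 and 7.17 and then at 7.61 and 7.55, a change of 0.56 that was not called. It lies at chr13:21750504-21750803 on the minus strand of GRCm38.p6, again from RefSeq, with TCCCGC and TATAAA, the core promoter motif known as a TATA box, in capitals.
H4c12: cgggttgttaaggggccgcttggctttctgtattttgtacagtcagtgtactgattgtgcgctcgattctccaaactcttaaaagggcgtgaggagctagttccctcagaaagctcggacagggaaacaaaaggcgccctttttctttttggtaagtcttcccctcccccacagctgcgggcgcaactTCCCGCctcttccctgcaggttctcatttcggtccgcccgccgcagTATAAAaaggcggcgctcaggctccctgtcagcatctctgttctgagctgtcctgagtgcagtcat
On either strand TATAAA occurs in 18 of the 27 promoters found for the histone genes called lower (66.7%), against 14.2% of all promoters of the table. TCCCGC occurs in 6 of the 27 (22.2%).

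Of 25 tested mitosis genes 2 fell, the kinase gene Plk1 (10.56 and 10.40, then 9.35 and 9.47) and Incenp, a partner of Aurora B kinase (10.40 and 10.64, then 9.41 and 9.40). The share called was 8%, against 7.14% of all genes called either way and 3.01% called lower. By adjusted p alone 9 of the 25 passed in limma, against 1583 of the 10935 genes. The log2 changes of Plk1 and Incenp, -1.07 and -1.11, lay close to 2-fold and both lost the call with median scaling. Plk1 also lost it without E12.5 replicate 1 (-0.996), and Incenp without E12.5 replicate 2 (-0.99). The list's median change was -0.52, and 21 of 25 changes were below 0.

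**Figure D3:**
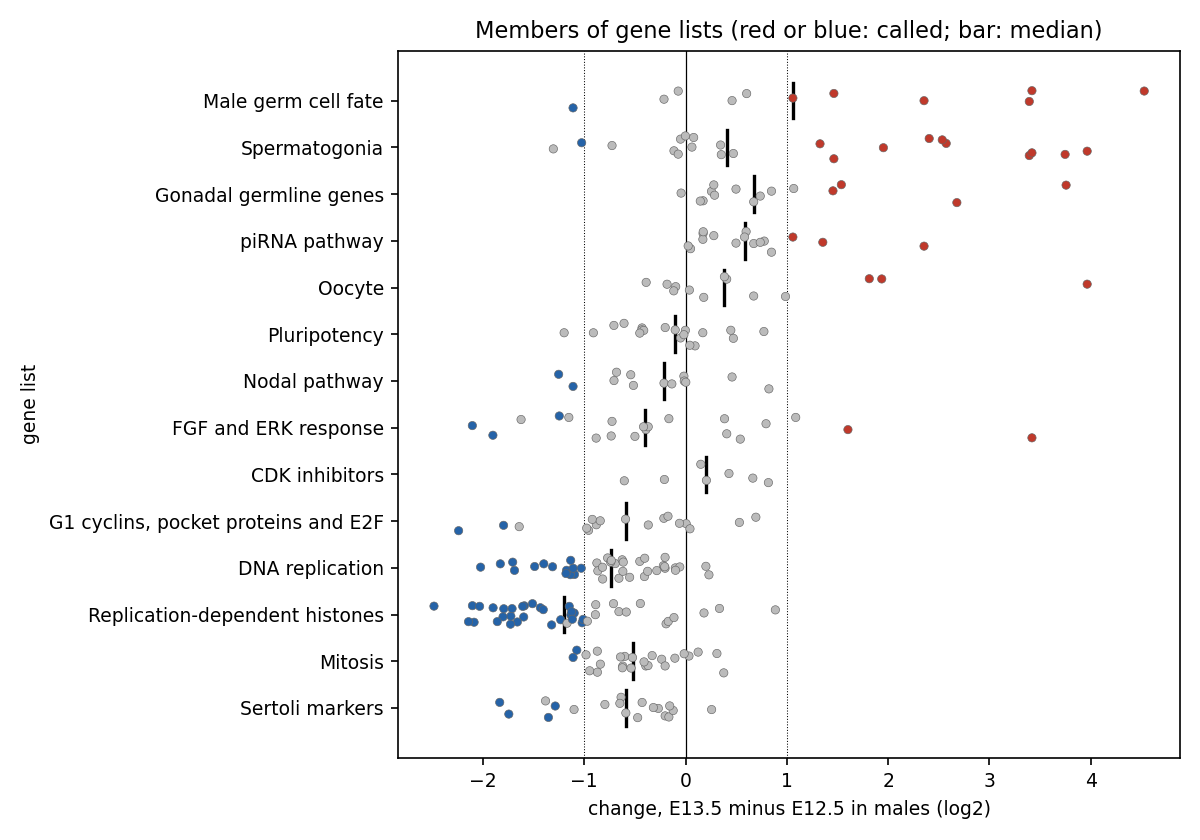
Log2 change from E12.5 to E13.5 in males (horizontal axis) for each tested member of 14 gene lists (vertical axis), with called rises in red, called falls in blue, other members in grey and a black bar at the median. The male fate and spermatogonial lists hold rises of up to 4.53, replication and histone genes lie mostly below 0, and no pluripotency gene or kinase inhibitor is called.

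Among DNA methylation genes Dnmt3l was the only one of 9 tested to be called (11.1%, against 7.14% of all genes). The maintenance methyltransferase Dnmt1 went from 10.01 and 10.01 to 9.29 and 9.59 (log2 change -0.57, adjusted p = 0.0341, under 2-fold). Dnmt3b, a de novo methyltransferase, was at 8.87 and 8.94 and then at 9.32 and 8.87 (0.19, adjusted p = 0.512). Uhrf1, which recruits Dnmt1 to replicated DNA, was at 9.75 and 9.98 and then at 9.52 and 9.99 (-0.11, adjusted p = 0.812). Dnmt3a did not pass the filter and was not used here. Of 22 tested histone modifiers 3 were called (13.6%, against 7.14% of all genes). Ezh2, the methyltransferase of Polycomb complex PRC2, went from 10.73 and 10.74 to 9.66 and 9.54 (-1.13, adjusted p = 5.82e-05). Hdac1, a histone deacetylase, went from 10.37 and 10.48 to 9.35 and 9.32 (-1.09, adjusted p = 3.04e-05). Both missed 2-fold with median scaling. The demethylase gene Kdm6b rose from 6.52 and 6.15 to 7.09 and 8.28 (1.35, adjusted p = 0.0199), and lost its call without E12.5 replicate 2 or E13.5 replicate 2 (weakest change 0.75).

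Signalling genes moved in both directions. Of 20 tested genes of the response to FGF and its kinase ERK, 2 rose and 3 fell (25% called, against 7.14% of all genes). The rises were Egr4 and Ier3, an early response gene that lost its call with any array left out (highest adjusted p = 0.198). The falls were Etv1 (8.27 and 8.58, then 6.08 and 6.55), Etv4 (9.92 and 9.95, then 8.08 and 7.98) and Dusp4 (10.19 and 10.11, then 9.04 and 8.76). Etv1 and Etv4 are transcription factors and Dusp4 a phosphatase of the pathway. Their log2 changes were -2.11, -1.90 and -1.25, and Dusp4 lost its call with median scaling and cyclic loess. Dusp6, a phosphatase of ERK, was at 10.33 and 10.42 and then at 9.60 and 9.68 (-0.73, adjusted p = 0.0734).

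In the BMP response Id4 and Bmpr1b rose and Msx1 fell among 16 tested members (18.8% called, against 7.14% of all genes). Msx1, a homeobox factor, went from 7.54 and 7.55 to 5.86 and 5.07 (log2 change -2.08, SE 0.30, adjusted p = 2.3e-05). Bmpr1b, a receptor, was detected on 1 of the 4 arrays (4.28 and 4.36, then 5.56 and 5.10), and its rise of 1.01 turned to -0.06 with median scaling. Its call was lost with any array but E13.5 replicate 2 left out (highest adjusted p = 0.184). In the Notch pathway 2 of 13 tested members were called (15.4%, against 7.14% of all genes). Hey1, a repressor that Notch induces, went from 10.78 and 10.72 to 9.94 and 9.54 (-1.01), missing 2-fold without E12.5 replicate 1 or E13.5 replicate 2 (weakest change -0.80). Hes5, a repressor of the same kind, went from 5.99 and 4.72 to 6.56 and 6.36 (1.10, adjusted p = 0.0459). Its call was lost with any array but E12.5 replicate 1 left out, with a weakest change of 0.46 (highest adjusted p = 0.59). None of 15 tested genes of the Wnt response was called in limma, and 2 had an unadjusted p under 0.05.

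Among the metabolic lists only glycolysis had members called in limma. None of 44 tested genes of oxidative phosphorylation was called in limma (median change -0.03), and none of 14 of cholesterol synthesis (0.02). An unadjusted p under 0.05 was reached by 7 and 2 of them. By adjusted p alone Ndufv1 (0.44) and Atp5j (-0.67) passed in the first of these. Of 16 tested glycolysis genes 3 fell and none rose (18.8%, against 3.01% of all genes that fell), and 0 to 5 fell over the alternatives. Pfkp, the platelet form of phosphofructokinase, went from 8.07 and 7.86 to 6.23 and 6.42 (-1.64, adjusted p = 0.00423). Pfkl, the liver form, went from 9.32 and 9.28 to 7.82 and 8.64. Hk1, a hexokinase, went from 6.16 and 6.30 to 4.39 and 4.64, where it was undetected (at least 1.59-fold lower). Pfkl and Hk1 lost their calls with 3 of the 4 arrays left out in turn, all but E13.5 replicate 2 (highest adjusted p = 0.372 and 0.0937).

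Among 20 tested genes of the amino acid response of Atf4, 2 rose and 3 fell (25% called, against 7.14% of all genes). Psat1, an enzyme of serine synthesis, went from 10.36 and 10.48 to 9.06 and 8.98 (log2 change -1.40, adjusted p = 5.6e-05). Slc7a5, which carries large neutral amino acids, went from 11.32 and 11.27 to 10.07 and 10.00 (-1.26, adjusted p = 3.41e-05). Slc7a3, a carrier of cationic amino acids, fell by 1.604 on the log2 scale, and by 1.11 without its call when leaving out E13.5 replicate 2 (adjusted p = 0.103). Ddit4, an inhibitor of the growth kinase complex mTORC1, rose from 9.87 and 9.94 to 11.01 and 10.96 (1.08, adjusted p = 0.000959). Ddit3, a stress transcription factor also called CHOP, was detected at E13.5 alone and rose at least 1.46-fold (fitted log2 change 1.02). Its call was lost without E12.5 replicate 2 or E13.5 replicate 1 (highest adjusted p = 0.17).

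Of 15 tested RNA-binding proteins of germ cells 3 rose (20%, against 4.13% of all genes). Beside Nanos2 and Nanos3 it was Ddx25, a testicular RNA helicase, from 10.10 and 9.92 to 11.52 and 11.45 (2.78-fold, adjusted p = 6.49e-07). Among 13 adhesion and migration genes 2 rose (15.4%, against 4.13% of all genes). Igf1r, a growth factor receptor, rose by 1.14, and lost its call without E12.5 replicate 2 or E13.5 replicate 1 (weakest change 0.77). Cd9, a tetraspanin, rose by 1.00, at the threshold itself (9.46 and 9.35, then 10.47 and 10.34). It fell short of 2-fold without E12.5 replicate 2 or E13.5 replicate 1. Bcl2l11, which promotes cell death, fell by 1.03 as the 1 call among 17 apoptosis genes (5.88%, against 7.14% of all genes). It lost that call in 7 of 15 other settings and without E12.5 replicate 1 or E13.5 replicate 2 (highest adjusted p = 0.26). Among 16 immediate early and heat shock genes 1 was called (6.25%, against 7.14% of all genes). Zfp36, an mRNA decay factor, rose by 1.31 (7.46 and 6.86, then 8.74 and 8.19), and lost its call without E12.5 replicate 2 or E13.5 replicate 1 (highest adjusted p = 0.0717).

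The largest falls included homeobox genes of the X chromosome. Rhox9 and Rhox6, early germ cell genes of the Rhox cluster, were the 2 falls on the germ cell marker list. Rhox9 went from 11.08 and 10.87 to 8.38 and 7.97 (log2 change -2.80, SE 0.24, adjusted p = 1.57e-08). Rhox6 went from 8.34 and 8.12 to 5.90 and 5.34 (-2.60, SE 0.33, adjusted p = 3.43e-06). The cluster holds similar copies, and cross-hybridization between its members was not tested. Of all 381 tested genes of the X chromosome 38 rose and 13 fell (13.4% called, against 7.14% of all genes, with 4.13% higher and 3.01% lower), and between 11 and 50 rose over the alternatives. Xlr5a, of another X-linked multicopy family, rose by 2.56 (6.69 and 5.26, then 8.60 and 8.47).

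Plcd1, a phospholipase C, had the largest fall among the named genes, from 9.57 and 9.68 to 6.62 and 6.56 (8.21-fold lower, adjusted p = 5.12e-07). Kcnk1, a potassium channel, went from 8.74 and 8.80 to 6.15 and 5.84 (6.88-fold lower). Jak3, a cytokine receptor kinase, went from 7.68 and 7.71 to 5.66 and 4.46 (6.21-fold lower), and a dimmer probe that was detected on none of the 4 arrays gave -0.73. For Pla1a, a phospholipase of phosphatidylserine, St6galnac2, a sialyltransferase, Ak1, an adenylate kinase, Stard8, a lipid-transfer domain protein, and Fbln2, an extracellular matrix fibulin, no E13.5 array was above background. Their falls were at least 4.74-fold, 4.16-fold, 2.7-fold, 3.53-fold and 2.88-fold. A further 2 probes for Pla1a were detected on none of the 4 arrays and gave changes of 0.01 and 0.21.

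Markers of other gonadal cells moved over the same day. Of 24 Sertoli markers 19 were tested, 8 of these were detected on none of the 4 arrays, and 4 fell (21.1%, against 3.01% of all genes) while none rose (median change -0.59). Their summed intensity was 3980 and 3771 at E12.5 and 1786 and 1754 at E13.5. Aard, at 10.70 and 10.64 and then 9.44 and 9.19, adds to these sums. It was also detected on both female arrays of each day (means of 9.80 and 9.60), so the sums need not read Sertoli cells alone. Amh, the hormone that makes the female ducts regress, was at 6.24 and 6.32 and then, undetected, at 4.52 and 4.55 (at least 1.64-fold lower, adjusted p = 2.1e-06). Cbln4, a secreted protein, went from 5.96 and 6.499 to 4.45 and 4.34 (at least 1.59-fold lower). Neither was called without background correction, with an offset of 50 or with cyclic loess, and 1 to 4 members of the list fell over the alternatives. Aard (-1.35) and Dhh (-1.29), the testis hedgehog ligand, lost their calls with 3 of the 4 arrays left out in turn, all but E13.5 replicate 1 (highest adjusted p = 0.0972 and 0.244). Sox9, the factor that specifies Sertoli cells, was detected on none of the 4 arrays. In bulk samples of this kind fewer cells of a type and less RNA per cell cannot be told apart.

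The erythroid genes behaved less evenly. Hbb-y, an embryonic globin, was at 10.50 and 10.59 at E12.5 and at 8.93 and 6.43 at E13.5 (log2 change -2.86, SE 0.93, adjusted p = 0.0392). The E13.5 arrays lay far from each other, and the call was lost with 3 of the 4 arrays left out in turn, all but E13.5 replicate 1, with a weakest change of -1.61 (without E13.5 replicate 2). Without E13.5 replicate 1 the change was -4.11. The summed intensity of the 8 tested erythroid markers was 3606 and 3616 at E12.5 and 2024 and 847 at E13.5. Among 8 endothelial markers 1 was called (12.5%, against 7.14% of all genes), and 4 of the 8 were detected on none of the 4 arrays. Pecam1, which germ cells also carry on their surface, fell from 9.53 and 9.62 to 8.16 and 7.88. Among 10 interstitial markers 2 were called (20%). Vim fell (-1.46) and Ptch1, detected at E13.5 alone, rose (1.13). Vim lost its call without E12.5 replicate 2 or E13.5 replicate 1 (highest adjusted p = 0.163). Ptch1 lost it without any array but E13.5 replicate 1 (highest adjusted p = 0.432). The 3 macrophage markers tested were detected on none of the 4 arrays. The summed intensity of the 10 interstitial markers was 329 and 427 at E12.5 and 360 and 384 at E13.5. Of these markers 1 was detected on both E12.5 arrays and 5 on both E13.5 arrays. Falls of genes such as Fbln2, Msx1, Hk1 and Vim therefore stand beside a fall of Sertoli marker and globin signal, but not of summed interstitial signal. The part of other cells in these falls was not tested.

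Imprinted genes and ribosomal protein genes served as further groups. Of 21 tested imprinted genes 1 was called (4.76%, against 7.14% of all genes). Gnas, a G protein subunit, was at 7.83 and 8.16 and then 6.82 and 6.48 (log2 change -1.35, adjusted p = 0.0186). It lost its call without E12.5 replicate 2 or E13.5 replicate 2 (highest adjusted p = 0.143). Of 55 tested ribosomal protein genes 1 was called (1.82%). Rpl3l, a paralogue best known from muscle, rose from 4.98 and 5.76, undetected, to 7.56 and 7.24 (at least 2.93-fold). The median change of the ribosomal protein genes was 0.07.

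The female germ cells of the same days showed which changes were shared. In females 533 genes rose (4.87%) and 353 fell (3.23%) from E12.5 to E13.5. Of the male calls 71 rose and 56 fell in females too, 5 rose in males and fell in females, and 4 did the reverse. The difference between the male and the female step was itself tested: 910 genes passed (8.32%), with 434 (3.97%) in which the male step was higher and 476 (4.35%) in which it was lower. Of the 910 genes 306 were also called in the male step.

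Most of the male fate list differed from the female step. Of 11 tested members 7 had a higher male step (against 3.97% of all genes) and 1, Lefty2, a lower one (against 4.35%). The list names genes known from male germ cells, so its difference between the sexes is no independent evidence either. Dnmt3l was detected on none of the 4 female arrays (4.72 and 4.37, then 4.42 and 4.43), and its male step exceeded the female step by 4.65 on the log2 scale (SE 0.61, adjusted p = 2.24e-05). Nanos2 in females was at 5.72 and 4.38 and then at 5.83 and 5.85 (difference 2.60, adjusted p = 0.017). Egr4 in females stayed undetected (4.45 and 4.40, then 4.42 and 4.83; difference 3.22, adjusted p = 0.00033). Nanos3 went opposite ways, with a female fall from 7.39 and 7.08 to 5.75 and 5.32 (difference 3.16, adjusted p = 2.71e-05).

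Pluripotency genes separated the sexes as well. In females 11 of the 19 tested members fell (against 3.23% of all genes) and none rose, with a median change of -1.09. For 7 of the 19 the male step was the higher, against 3.97% of all genes. Nanog in females went from 9.32 and 9.10 to 7.07 and 6.59, and its steps differed by 2.47 (SE 0.52, adjusted p = 0.0026). Pou5f1 in females went from 11.62 and 11.69 to 10.74 and 10.40 (difference 1.26, adjusted p = 0.0323). Nodal in females went from 6.12 and 5.68 to 4.76 and 4.46 (difference 1.74, adjusted p = 0.00189). Stra8 rose in females from 7.05 and 6.52 to 8.59 and 9.01 (difference -1.94, adjusted p = 0.00227).

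Other gains were common to both sexes. Taf7l rose by 3.50 and Tex101 by 2.81 in females on the log2 scale, against 3.76 and 2.68 in males, and the differences of 0.26 (SE 0.26, adjusted p = 0.632) and -0.13 (SE 0.36, adjusted p = 0.895) were not called. Mageb4 rose by 1.65 in females and 1.46 in males. Sohlh1 rose in both, by 2.34 in females and 3.97 in males, and there the difference of 1.63 was called (adjusted p = 0.00169). Etv4 fell in both sexes, with log2 changes of -2.18 in females and -1.90 in males.

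The fall of replication-dependent histones differed between the sexes. For 24 of the 42 tested members the male step was lower (against 4.35% of all genes), and the female median was 0.07. H4c18 in females went from 5.50 and 6.80 to 7.37 and 7.39 (difference -3.71, SE 0.60, adjusted p = 0.00021). Of the 41 replication genes 6 had a lower male step (against 4.35% of all genes), among them Cdc6 (-1.60), Rrm2 (-1.68) and Tk1 (-2.04). Ccne1 in females was at 8.39 and 8.60 and then at 8.31 and 8.55 (difference -1.73, adjusted p = 0.00224). Rhox9 and Rhox6 stayed at 12.47 and 12.24 and at 9.92 and 9.89 on the female E13.5 arrays, and their steps differed by -2.34 and -2.37.

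**Figure D4:**
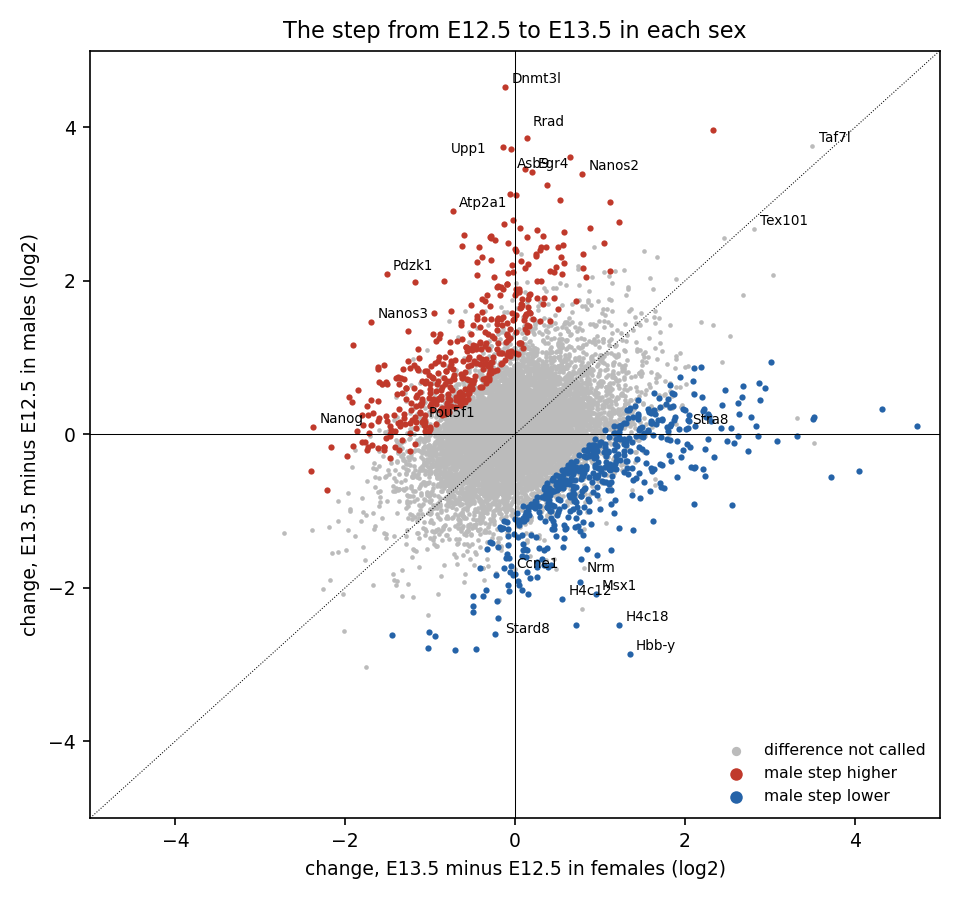
Log2 change from E12.5 to E13.5 in males (vertical axis) against that in females (horizontal axis) for each of the 10935 genes tested, with the 434 genes of a higher male step in red, the 476 of a lower male step in blue and a dotted line of equal change. Dnmt3l, Rrad, Upp1 and Asb9 rise in males near a female change of 0, whereas Taf7l and Tex101 lie near the line.

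The days after E13.5 place the step within the whole course, and these levels are described without a test. Dnmt3l went on to 12.66 at E14.5 and 13.57 at E15.5 in males and was still at 13.28 at E18.5, so the E13.5 level of 9.28 was the start of its rise. Nanos2 in contrast was near its highest mean level at E13.5 (11.47), followed by 11.24 at E14.5 and 8.51 at E15.5, and was undetected at E16.5. Nanos3 took a like course, with 9.69, 9.62 and 6.89 on those days. Egr4 stayed between 10.25 and 11.81 from E13.5 to E18.5. Sohlh1 rose further to 12.06 at E14.5 in males, and in females it reached 13.15 at E16.5. Piwil4 reached 10.75 at E14.5 and 11.72 at E15.5. Id4 was detected in males on both arrays at E13.5 and E14.5 (7.47 and 7.04) and on neither at E15.5.

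Falls continued too. Ccne1 was at 8.85 at E11.5, 8.03 at E12.5 and 6.23 at E13.5 in males, and was detected on 1 array at E14.5 and on neither from E15.5 to E17.5. Rrm2 was undetected in males from E14.5 to E17.5. Nanog, which was not called between E12.5 and E13.5 in males, was at 8.35 at E14.5 and 5.90 at E15.5. Lefty1 went from 10.71 at E13.5 to 7.19 at E14.5. Rhox9 in males fell to 5.38 at E15.5 and was at 8.73 again at E18.5, while in females it went from 12.36 at E13.5 to 6.59 at E18.5.

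**Figure D5:**
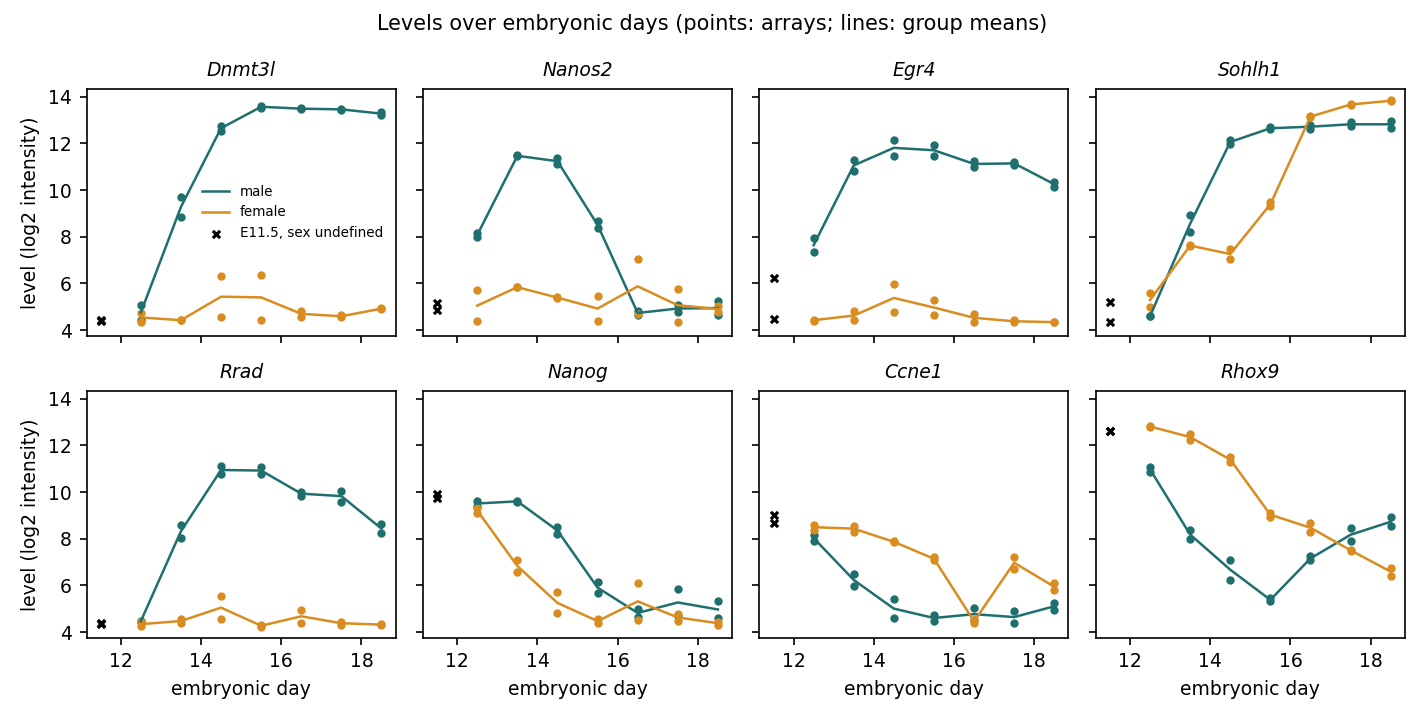
Log2 levels of 8 genes over embryonic days (horizontal axis) in male (green) and female (orange) germ cells, with points for arrays, lines through group means, and black crosses for the E11.5 arrays, whose sex the labels leave undefined. In males Dnmt3l and Sohlh1 leave the background at E13.5 and climb on, Nanos2 peaks at E13.5 with 11.47, and Ccne1 falls from 8.03 at E12.5.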

How the data were processed

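The deposited table gives bead intensities of 25697 probes on 44 arrays with, per the file headers, a detection p-value beside each intensity; the submitters' processing notes name BeadStudio 3.2. A further table holds the authors' log2 values, for which those notes name RMA and lumi. By a check of both tables, its columns share 1 distribution and keep the rank order of the deposited intensity. It served as an alternative. The genome build is not given in the sources used here.

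The neqc function of limma 3.58.1 (R 4.3.3) estimated background from the detection p-values, added an offset of 16 and applied quantile normalization. Probes detected at p under 0.01 on at least 2 arrays were kept (16086, of which 15127 had a symbol from the platform annotation, updated to RefSeq GRCm38.p6 names). Of all probes 23978 had 1 gene symbol, 0 had several and 1719 had none. The brightest kept probe stood for a gene. A model of 23 group means was fitted to all 44 arrays (21 residual degrees of freedom, 3.63 prior), so all groups shared 1 estimate of spread. Contrasts were tested two-sided with limma's moderated statistic and adjusted by Benjamini-Hochberg over 10935 genes. Where a day had no array above background, the fold was taken against that array's lowest detected level (its own reading if higher) and is a bound ("at least"). On data simulated for the male comparison with normal noise, 98 of 100 genes changed 4-fold were called and 81 of 100 changed 2-fold passed the adjusted p. Of the unchanged genes 5 were called. The changed genes were drawn from the brighter genes only, so these rates do not cover genes near background.

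The members and gene lists were chosen with earlier results of these data known. Genes named are the 12 largest rises and falls with a proper symbol and arrays that do not overlap, up to 5 called members of each list, fixed reference genes, and the 6 largest differences between the sexes each way. Others are marked as chosen after their values were seen, or illustrate a list's uncalled members. The number of arrays limits the precision.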

Additional observations from a re-analysis of the deposited data

Results flagged for a closer look

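The step from E12.5 to E13.5 differed between male and female germ cells by the test of the difference itself for 434 genes with a higher male step and 476 with a lower one. The sexes share no array in it.

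Among the reference genes and the largest differences each way in genes called in both comparisons, the male step exceeded the female step on the log2 scale for Dnmt3l (4.65), Upp1 (3.89), Asb9 (3.76), Rrad (3.72), Atp2a1 (3.64), Pdzk1 (3.60), Egr4 (3.22), Nanos3 (3.16), Nanos2 (2.60), Nanog (2.47), Piwil4 (2.11), Nodal (1.74) and Pou5f1 (1.26). Other named genes with a called higher male step included Snx33 (3.34), Usp9y (3.197), Cacna1h (2.97), Kremen2 (2.88), Id4 (2.87), Zfp36 (2.19) and Nlrp5 (2.14). Atp2a1, a calcium pump of the endoplasmic reticulum, went from 6.04 and 4.71 to 8.04 and 8.52 in males and from 5.79 and 5.98 to 4.998 and 5.30 in females. Pdzk1, a scaffold protein of membrane transporters, rose in males from 7.91 and 7.98 to 10.16 and 9.91 and fell in females from 7.53 and 6.99 to 6.17 and 5.32.

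By the same choice of genes the male step was lower for Hbb-y (-4.21), H4c18 (-3.71), Stard8 (-3.20), Msx1 (-3.03), H4c12 (-2.70), Nrm (-2.69), Stra8 (-1.94), Ccne1 (-1.73), Amh (-1.33) and Lefty2 (-1.16). Other named genes with a called lower male step included Rhox6 (-2.37), Rhox9 (-2.34), Fbln2 (-2.19), St6galnac2 (-2.11), Tk1 (-2.04), Cbln4 (-1.81) and E2f2 (-1.74). Nrm, a nuclear membrane protein, went from 9.35 and 8.83 to 7.46 and 6.85 in males and from 9.82 and 9.82 to 10.45 and 10.72 in females. Msx1 fell in males and was at 10.27 and 10.24 and then at 11.30 and 11.12 in females. Hbb-y in females was at 6.62 on both E12.5 arrays and at 7.10 and 8.84 at E13.5, a change of 1.35 that was not called (SE 0.93, adjusted p = 0.385).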

How the results depend on the processing

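With 2 arrays a day, depth is limited by signal over background: 3133 genes were detected on none of the 4 male arrays, and 269 calls had a day below it. Against 452 rises and 329 falls in males and 434 higher and 476 lower male steps, counts moved by over 1.5 times with no background correction (125, 103, 221 and 238), an offset of 50 (251 and 192 in males), cyclic loess (277 and 193 in males), no fold threshold (888 and 695 in males), and the compared arrays alone (277 rises in males, 265 higher and 298 lower male steps). Median scaling gave 583 rises and 167 falls, among them 230 of the 452 rises and 159 of the 329 falls. Background correction and the offset set how far dim genes are compressed, and the cause of the other shifts was not tested. Leaving out each array in turn gave 358 to 415 rises, 243 to 329 falls, 290 to 449 higher and 301 to 515 lower male steps, the lowest of the last without female E13.5 replicate 2. No other setting moved these 4 counts as far.

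Among uncalled genes some changes turned sign. With cyclic loess Lefty1 was at 0.32 and Stra8 at -0.78. With median scaling Lefty1 was at 0.19, Stra8 at -0.61, Dazl at 0.26, Mael at -0.24 and Uhrf1 at 0.30, and the called Bmpr1b was at -0.061. With an array left out, changes ran from -0.24 to 0.65 for Cdkn1b, -0.0014 to 0.19 for Nanog, -0.13 to 0.040 for Dazl, -0.35 to 0.13 for Uhrf1, -0.034 to 0.42 for Dnmt3b, -0.11 to 0.46 for Ddx4 and -0.080 to 0.23 for Stra8.

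With the replicate number as a block 452 genes rose and 329 fell in males, keeping 447 and 327 of the calls, and 444 and 482 steps were higher and lower; it changed no other call among the named genes. Deviations of same-numbered arrays correlated at 0.12 in males and 0.03 in females, over 2 pairs each, too few to treat the numbers as pairs; whether same-numbered arrays share a source was not tested. The beadchip could not be run as a block, since the headers used here name none.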
